A study of Mus musculus with 2 samples.

Results

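Markers of neuroepithelial cells and radial glia were followed in the brain of mouse embryos that lack functional *Plzf*. The 9 genes are *Nes*, *Vim*, *Fabp7*, *Slc1a3*, *Prom1*, *Msi1*, *Msi2*, *Lin28a* and *Lin28b*, chosen by name among the 37074 gene names of the array, with each of their 23 probes. RNA of the brain at E10.5 (forebrain and midbrain in the methods) was compared between wild type and luxoid (*Plzf* lu/lu) embryos on 2 arrays with 2 dyes. Each array held 1 wild type sample labeled with Cy3 and 1 *Plzf* lu/lu sample labeled with Cy5. The labels name the strain of the wild type as C57BL/6. The luxoid allele is a spontaneous point mutation in the first coding exon of *Plzf* that truncates the protein, so its transcript can still be made and detected. The dyes were not exchanged, so an effect of the dye and of the genotype cannot be told apart. The number of embryos behind each sample is not given in the sources used here. The p-values rest on the spread between these 2 arrays, with variance pooled over genes.

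Neuroepithelial cells line the early neural tube, divide at its apical surface and turn into radial glia as neurogenesis begins. The intermediate filaments nestin and vimentin are present in both, while the lipid-binding protein of *Fabp7* and the glutamate transporter of *Slc1a3* mark the radial glial state. The RNA-binding proteins of the Lin28 genes are high in the early neuroepithelium, where they hold back the maturation of let-7 microRNAs, and decline as development goes on.

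Signals are processed spot intensities, with background removed and dyes balanced. A gene was represented by its brightest probe and passed if all 4 channels exceeded a signal of 200 and reached a signal-to-noise ratio of 5. Of the 9 markers 7 passed, and *Slc1a3* and *Prom1* did not. A gene was counted as changed when *Plzf* lu/lu departed from wild type by over 1.3-fold, in 1 direction, on array 1 and again on array 2. None of the 7 was higher (0 of 7) by this rule, against 274 of the 10600 genes tested (2.58%), and 0 were lower, against 78 (0.736%). In limma with Benjamini-Hochberg adjustment over the 10600 genes, 0 of the 7 had an adjusted p under 0.05, against 3 genes in all (0.0283%), and 1 of the 7 had an unadjusted p under 0.05, against 2942 of the 10600, a larger share. *Fabp7* went beyond 1.3-fold on both arrays in opposite directions, as did 21 of all genes (0.198%). Normexp with centring of the arrays on all gene spots, in place of the deposited background and dye steps, put 6731 of the 10600 genes higher by the 1.3-fold rule, and counts under it below are to be read against that number. Looser filters also have their own counts. Of 23283 genes well above background, 586 were higher and 481 lower. With no filter it was 1695 and 2173 of 37071 genes, and with the filter in 1 channel 308 and 96 of 11079. With the mean over probes, 142 were higher and 112 lower. These are bulk tissues, in which fewer cells of a type and less RNA per cell cannot be told apart.

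The mutated gene, *Zbtb16* (*Plzf*, NM_001033324), gave a signal of 433 in wild type and 172 in *Plzf* lu/lu on array 1, and 546 and 211 on array 2. Both *Plzf* lu/lu samples were thus below both wild type samples, with log2 ratios of -1.33 and -1.37. A second, dimmer probe, whose 60 bases span 52017 bases of chromosome 9 (48473399 to 48525415, mm9) and so cross an intron, had log2 ratios of -0.87 and -1.09. *Zbtb16* did not pass the filter because of its signal of 172. The tissue carried progenitor transcription factors in every sample. *Sox1* had signals of 527 and 481 in wild type and 585 and 638 in *Plzf* lu/lu, and *Pax6* had 345 and 464 against 446 and 501.

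Nestin is the filament protein most used to name neural progenitors. The signal of *Nes* (NM_016701, chromosome 3) was 4845 in wild type and 4589 in *Plzf* lu/lu on array 1, and 3794 and 5135 on array 2. The genotypes did not separate, since the *Plzf* lu/lu sample of array 1 lay between the wild type samples. The mean log2 ratio of *Nes* was 0.18 (SD 0.36, n = 2 arrays; 95% interval -0.15 to 0.51; adjusted p from limma 0.408). Vimentin, its partner in the filament network, also occurs in mesenchyme. *Vim* (NM_011701, chromosome 2) had signals of 13880 and 12720 in wild type and 14830 and 14410 in *Plzf* lu/lu. Both *Plzf* lu/lu samples were the higher ones, by little. The mean log2 ratio of *Vim* was 0.14 (SD 0.059; 95% interval -0.052 to 0.33; adjusted p from limma 0.290). Each of these genes has 1 probe.

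Fabp7 carries fatty acids in radial glia and is used as one of their earliest markers. The signal of *Fabp7* (NM_021272, chromosome 10 from 57508039 to 57508098, mm9) was 5684 in wild type and 4278 in *Plzf* lu/lu on array 1, and 4967 and 7022 on array 2. The wild type samples lay close together, and the *Plzf* lu/lu samples were the lowest and the highest of the 4. As folds over wild type these are 0.753 (array 1) and 1.41 (array 2). The mean log2 ratio was 0.04 (SD 0.64; 95% interval -0.47 to 0.56; adjusted p from limma 0.903), a mean with no meaning of its own where the arrays oppose each other. *Slc1a3* (NM_148938, chromosome 15), the glutamate and aspartate transporter of radial glia, had signals of 201 and 158 in wild type and 227 and 189 in *Plzf* lu/lu. Its samples overlapped between the genotypes. On each array *Plzf* lu/lu was the higher channel, with log2 ratios of 0.17 and 0.26, but 2 signals were under 200, so it was outside the filter. Tested with genes well above background, its adjusted p from limma was 0.326, and with no filter 0.601. The other 2 probes of *Slc1a3* were not well above background in at least 1 channel.

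*Prom1* encodes prominin 1, a protein of membrane protrusions on the apical surface. Its brightest probe (NM_008935) had signals of 133 and 168 in wild type and 168 and 192 in *Plzf* lu/lu. No signal reached 200, so it was outside the filter, and its adjusted p from limma was 0.296 with genes well above background and 0.598 with no filter. The log2 ratios of this probe were 0.34 and 0.19. The other probes differed in direction. The probe A_52_P1194875, with 60 bases spread over 156 bases of the genome, had -0.44 and -0.08, and the dim probe A_66_P128318 (NM_001163582) had 0.83 and 0.65. The last was the only one of the 17 probes of the 9 genes well above background in each channel to exceed 1.3-fold upward on array 1 and on array 2, against 766 of all 33949 such probes higher by this rule (2.26%). Its signals were 14.7 and 18.7 in wild type and 26.1 and 29.4 in *Plzf* lu/lu. *Prom1* has several transcripts, and the 3 probes read different parts of the gene on chromosome 5. The first 30 of the 60 bases of each are given because these probes gave different answers.
A_52_P402786, at chr5:44397410-44397469 (mm9, minus strand): acgaagaagtttgggaaaacaatactaggc
A_66_P128318, at chr5:44447181-44447240 (mm9, minus strand): tcttttgtatgtgccgttgctgcaacaaat
A_52_P1194875, at chr5:44491120-44491275 (mm9, minus strand): agacctggtcccgtttgaaacagtattttt

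The Musashi proteins bind RNA in progenitors and block translation of targets such as *Numb*. *Msi1* (NM_008629, chromosome 5) had signals of 348 and 360 in wild type and 309 and 320 in *Plzf* lu/lu. Both *Plzf* lu/lu samples lay below both wild type samples, and the log2 ratio was -0.17 on each array (SD 0.0011). The 95% interval from limma was -0.35 to 0.02, with an adjusted p of 0.205. The 2 dimmer probes of *Msi1* did not follow, with log2 ratios of -0.27 and 0.11 for one and 0.12 and 0.40 for the other. *Msi2* (NM_054043, chromosome 11) had signals of 2572 and 2790 in wild type and 3250 and 3500 in *Plzf* lu/lu. Both *Plzf* lu/lu samples lay above both wild type samples, with log2 ratios of 0.34 and 0.33, inside the 1.3-fold line. The mean log2 ratio of *Msi2* was 0.33 (SD 0.0075; 95% interval 0.15 to 0.52), with an adjusted p from limma of 0.0777, above 0.05. *Msi2* is the gene of the 7 with an unadjusted p under 0.05 (limma, 0.00489). A second probe for the same transcript, A_55_P2727228, also passed the filter, and its log2 ratios were 0.12 and -0.09. The ratio of *Msi2* therefore rests on 1 probe. Another probe had -0.03 and 0.11, and the other 2 were not well above background in at least 1 channel.

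Lin28a and Lin28b are paralogues that bind the loop of let-7 precursors. The signal of *Lin28a* (NM_145833, chromosome 4) was 599 in wild type and 696 in *Plzf* lu/lu on array 1, and 1296 and 651 on array 2. The *Plzf* lu/lu samples lay close together, between the wild type samples. The log2 ratio was 0.22 on array 1 and -0.99 on array 2. Its mean was -0.39 (SD 0.86; 95% interval -1.05 to 0.27; adjusted p from limma 0.379). *Lin28b* (NM_001031772, chromosome 10) had signals of 2555 in wild type and 3675 in *Plzf* lu/lu on array 1, and 3952 and 3472 on array 2. Here too the *Plzf* lu/lu samples were alike and the wild type samples were the lowest and the highest. The log2 ratio of *Lin28b* was 0.52 on array 1 and -0.19 on array 2, with a mean of 0.17 (SD 0.50; 95% interval -0.25 to 0.58; adjusted p from limma 0.536). The second probes of both genes showed the same order of samples. The second probe of *Lin28a* had 36.01 and 67.3 in wild type and 46.0 and 43.2 in *Plzf* lu/lu, and that of *Lin28b* had 68.8 and 102 against 88.1 and 75.6. The 2 further probes of *Lin28b* were not well above background in at least 1 channel. The first 30 bases of the 4 probes are given because separate stretches of both genes gave 1 pattern.
*Lin28a*, A_55_P2074371, at chr4:133559245-133559304 (mm9, minus strand): ttccttcccttctcttccctgggaaaataa
*Lin28a*, A_55_P2842616, at chr4:133560935-133560994 (mm9, minus strand): aaatcactctaaacaggaaagggtggtaca
*Lin28b*, A_55_P1970905, at chr10:45096468-45096527 (mm9, minus strand): ggactgtctttgtaccgaatgtcttactct
*Lin28b*, A_52_P532355, at chr10:45140412-45140471 (mm9, minus strand): agccagtggaatttacatttaaaaaatccc

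**Figure D1:**
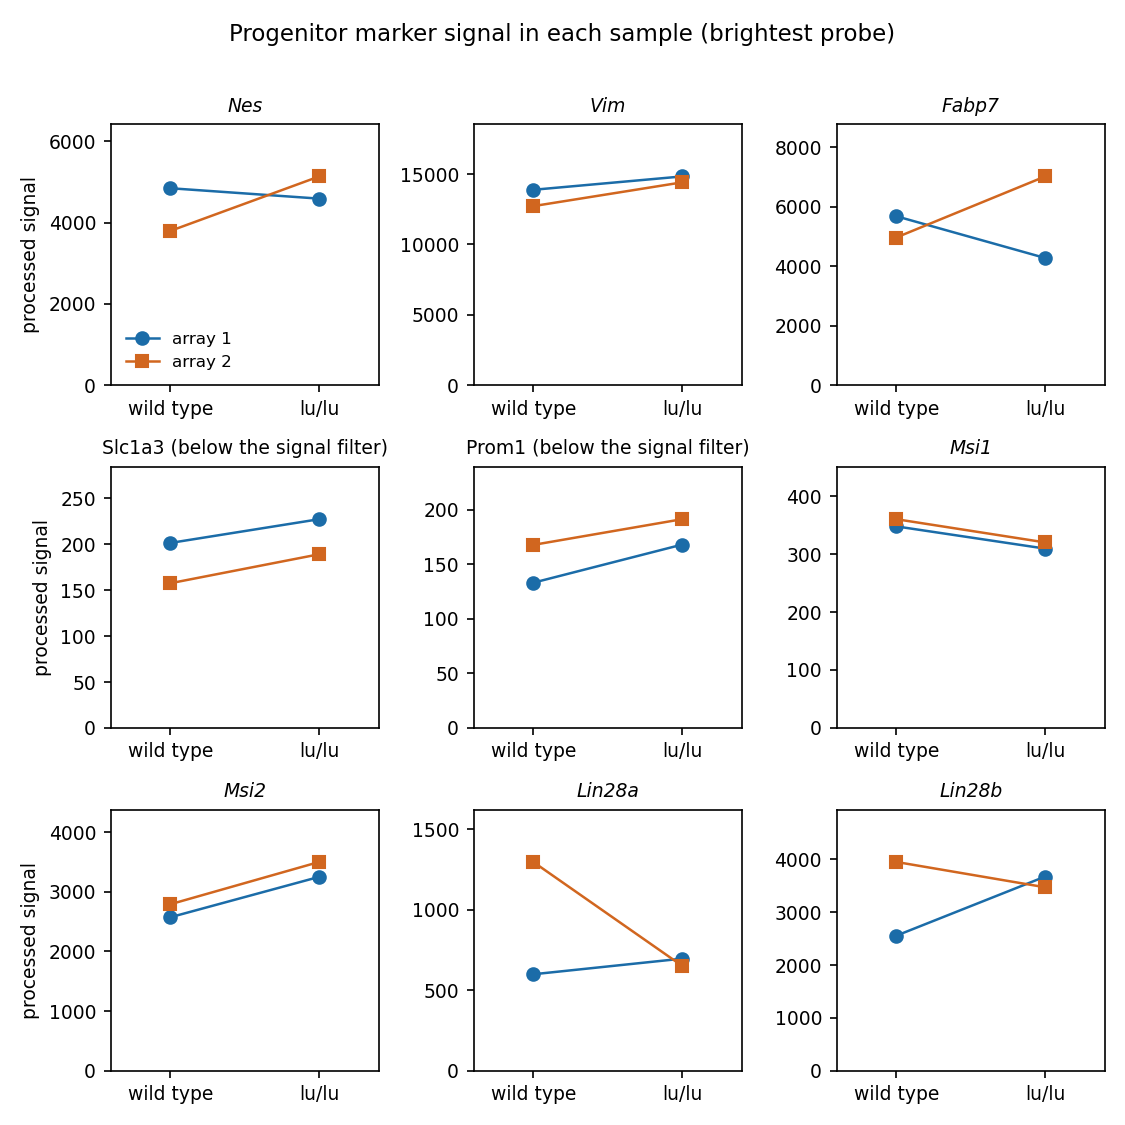
Processed signal (vertical axis, linear from 0) of the brightest probe of each of the 9 markers in the wild type and the *Plzf* lu/lu sample of each array. The lines of array 1 and array 2 run side by side for *Vim*, *Slc1a3*, *Prom1*, *Msi1* and *Msi2* and cross for *Nes*, *Fabp7*, *Lin28a* and *Lin28b*.

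The arrays thus disagreed for *Fabp7*, *Nes*, *Lin28a* and *Lin28b*. On array 1 alone, 1 of the 7 passing markers was higher by more than 1.3-fold (*Lin28b*; 8.25% of all genes) and 1 lower (*Fabp7*; 5.58%). On array 2 alone, 2 were higher (*Nes* and *Fabp7*; 4.5% of all genes) and 1 lower (*Lin28a*; 1.96%). The difference of the log2 ratios between the arrays, taken without sign, was 0.119 at the median gene. It was 1.21 for *Lin28a*, a size reached by 21 of the 10600 genes (0.198%). It was 0.91 for *Fabp7*, reached by 78 genes (0.736%), and 0.71 for *Lin28b*, reached by 160 genes (1.51%). *Nes* had 0.51, reached by 348 genes (3.28%). For *Msi1* and *Msi2*, in contrast, 99.2% and 95.1% of the genes had a difference at least as large.

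The samples of 1 genotype carry the same dye on both arrays, so each genotype was also compared with itself, as log2 signal on array 2 less that on array 1, centred on the median of the passing genes. For *Lin28a* the wild type samples differed by 1.14, and the *Plzf* lu/lu samples by -0.05. A wild type difference of that size was reached by 31 of the 10600 genes (0.292%). The second probe of *Lin28a* gave 0.93 and -0.04. For *Lin28b* the differences were 0.66 in wild type, reached by 110 genes (1.04%), and -0.03 in *Plzf* lu/lu, with 0.59 and -0.17 at its second probe. *Fabp7* was the reverse, with -0.17 in wild type and 0.76 in *Plzf* lu/lu, a size reached by 18 genes (0.17%). The disagreement on the Lin28 genes therefore lay between the wild type samples, and that on *Fabp7* between the *Plzf* lu/lu samples. That on *Nes* was divided between both genotypes, with -0.33 in wild type (6.66% of the genes differed as much) and 0.21 in *Plzf* lu/lu (11.5%). Whether it comes from the embryos or from the labeling and hybridization was not tested.

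**Figure D2:**
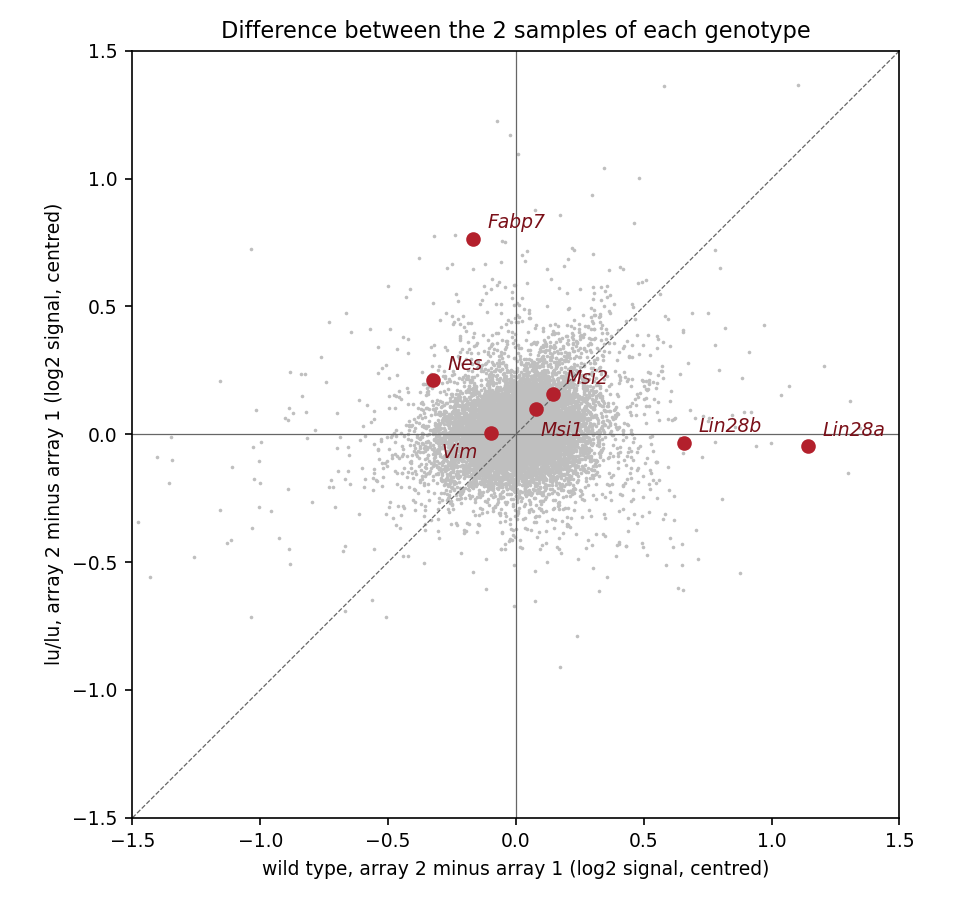
Log2 signal on array 2 less array 1, centred on the median of the passing genes, for the wild type samples (horizontal) and the *Plzf* lu/lu samples (vertical), with the 7 passing markers in red and 10584 of the 10600 passing genes inside the axes in gray. *Lin28a* and *Lin28b* lie far to the right near the horizontal line, *Fabp7* lies high near the vertical line, and the dashed diagonal marks equal centred differences in the genotypes.

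Some markers of other cell types moved with these differences. All 10 surface ectoderm genes were well above background in each channel, and 6 passed the filter, with 0 higher and 0 lower by the rule (1 higher with a looser filter or the mean over probes, 2 with normexp and centring on all gene spots, 4 on array 1 alone, and 1 higher and 1 lower on array 2 alone). Over the passing genes the median log2 ratio was 0.45 on array 1 and -0.18 on array 2, the same signs as the Lin28 genes. The summed signal of all 10 was 9028 in wild type and 13190 in *Plzf* lu/lu on array 1, and 12510 and 9980 on array 2. The brightest, *Krt18*, a keratin of simple epithelia, had 4696 and 7581 on array 1 and 6990 and 5536 on array 2. The sums rest mostly on *Krt18* and *Krt8*, and *Krt5*, *Krt14*, *Trp63* and *Grhl3*, which also mark surface ectoderm, did not have the signs of the Lin28 genes. *Krt14* had log2 ratios of -0.01 and 0.53, and *Grhl3* had 0.63 and 0.79. In the sums the wild type samples differed in the direction of the Lin28 genes, and the *Plzf* lu/lu samples differed as well, which those of *Lin28a* and *Lin28b* did not. The part of surface ectoderm in the Lin28 ratios was not tested.

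Neuronal genes went with *Fabp7* and *Nes* on array 2 only. All 9 were well above background, 6 passed, and their summed signal was 7122 in wild type and 7562 in *Plzf* lu/lu on array 1, and 6581 and 9958 on array 2. The sample with the most *Fabp7* was also the one with the most neuronal signal, but the sample with the least *Fabp7*, *Plzf* lu/lu of array 1, was not the one with the least neuronal signal. The median log2 ratio of the passing neuronal genes was 0.08 on array 1 and 0.66 on array 2, with 1 gene higher beyond 1.3-fold on both arrays (*Elavl4*, an RNA-binding protein of neurons, 0.40 and 0.75) and 0 lower. That count of 1 became 0 with normexp and centring on the passing genes or at 1.5-fold, 2 with genes well above background or with no filter, and 5 on array 2 alone or with normexp and centring on all gene spots. The brightest, *Stmn2*, had signals of 2647 and 2482 in wild type and 2581 and 3772 in *Plzf* lu/lu. Genes of primitive erythrocytes, unlike the neuronal median, changed sign between the arrays in the way of *Fabp7*, with medians of -0.95 and 0.12. All 9 were well above background, and 7 passed, with 0 higher and 0 lower by the rule (7 lower on array 1 alone, 1 higher on array 2 alone). With genes well above background or with no filter, 1 was lower. The summed signal of the 9 was 588200 in wild type and 312800 in *Plzf* lu/lu on array 1, and 238900 and 293800 on array 2. Here the outlying sample was the wild type sample of array 1, with *Hbb-y*, an embryonic globin and the brightest gene, at 146800 against 56550 to 84560 in the other samples. The part of neurons and of blood in the ratios of *Fabp7* and *Nes* was not tested.

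Of the remaining cell types, endothelial genes had a negative median on both arrays. All 12 were well above background and 4 passed, 0 of them higher and 2 lower beyond 1.3-fold on both arrays, *Plvap* (-0.58 and -0.79) and *Emcn* (-0.63 and -0.68). The count of 2 became 7 with genes well above background or with no filter, 4 on array 2 alone, 1 at 1.5-fold and 0 with normexp and centring on all gene spots. Over all genes, 481 of 23283 were lower with genes well above background, and 2173 of 37071 with no filter. Their summed signal was 5736 and 6416 in wild type and 4752 and 4422 in *Plzf* lu/lu, and the brightest, *Egfl7*, had log2 ratios of -0.16 and -0.41. Mesenchyme and neural crest genes, which bear on *Vim*, summed to 18360 and 15810 in wild type and 18540 and 14260 in *Plzf* lu/lu. Of 13 genes, 12 were well above background (not *Foxd3*), 10 passed, and 0 were higher or lower beyond 1.3-fold on both arrays. On array 2 alone, with the mean over probes or with genes well above background, 1 was lower, and with no filter 2. With normexp and centring on all gene spots 3 were higher. *Col1a2* was the brightest, with log2 ratios of 0.15 and 0.10. The 7 macrophage genes were all well above background, 3 passed, and 0 went beyond 1.3-fold on both arrays, with 1 lower on array 1 alone (*Csf1r*). They summed to 2995 and 2615 in wild type and 2415 and 2439 in *Plzf* lu/lu, with *Ptprc* the brightest at -0.12 and -0.14. Like the endothelial genes, the passing macrophage genes had a negative median log2 ratio on both arrays (-0.36 and -0.14). The part of these cells in the marker ratios was not tested.

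Transcription factors of the same progenitors had a positive median on both arrays. Of 11 factors 10 passed, with 2 higher and 0 lower beyond 1.3-fold on both arrays. The count of 2 became 0 at 1.5-fold or with the trend on probe GC content removed, 1 with normexp and loess or the mean over probes, 6 on array 2 alone and 9 with normexp and centring on all gene spots. Their median log2 ratio was 0.28 (0.24 on array 1 and 0.40 on array 2), against 0.0067 over all 10600 genes. *Sox2*, which maintains progenitors, had signals of 1402 and 1496 in wild type and 1902 and 2079 in *Plzf* lu/lu. Both *Plzf* lu/lu samples were above both wild type samples, with log2 ratios of 0.44 and 0.47 and an adjusted p from limma of 0.0541. *Otx2*, a factor of forebrain and midbrain, had 2699 and 2941 against 3522 and 3851, with log2 ratios of 0.38 and 0.39 (adjusted p from limma 0.0629). The brightest factor, the Notch target *Hes5*, went as *Fabp7* did, with -0.18 on array 1 and 0.47 on array 2. The authors' list of genes changed beyond 1.3-fold holds *Sox2* and also *Nr2e1*. At its brightest probe *Nr2e1* had log2 ratios of 0.25 and 0.68, so it was not counted here. *Notch1* did not pass.

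Genes of apical junctions and polarity, which hold neuroepithelial cells together where prominin 1 sits, were described beside *Prom1*. Of 13 genes 10 passed, 2 were higher and 0 lower, and the median log2 ratio was 0.32 (0.43 on array 1 and 0.12 on array 2). The surface ectoderm median was also higher on array 1 (0.45, and -0.18 on array 2). *Cdh1*, a gene of the junction list, had log2 ratios of 1.11 and -0.18. The part of surface ectoderm in these ratios was not tested. *Ctnnb1*, beta-catenin, had signals of 4273 and 4444 in wild type and 7170 and 6477 in *Plzf* lu/lu. Its log2 ratios were 0.75 and 0.54 (adjusted p from limma 0.0510). *Cdh2*, N-cadherin, had 2899 and 3424 against 4405 and 4655, with log2 ratios of 0.60 and 0.44 (adjusted p from limma 0.0518). For both genes each *Plzf* lu/lu sample was above each wild type sample. *Ctnna1*, the brightest, had log2 ratios of 0.33 and 0.0044. The count of 2 became 1 with the mean over probes, 0 at 1.5-fold, 5 on array 1 alone and 8 with normexp and centring on all gene spots. *Crb1* and *Ocln* were not well above background in every channel, and *Mpp5* did not pass.

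Genes that let-7 represses and genes that process it were described beside the Lin28 genes. All 15 passed, and 0 were higher and 0 lower beyond 1.3-fold on both arrays. On array 1 alone 1 was higher and 1 lower, with the mean over probes 2 were lower, and with normexp and centring on all gene spots 10 were higher. Their median log2 ratio was 0.03, with 0.10 on array 1 and -0.03 on array 2. The brightest, *Hmga1*, a chromatin protein of proliferating cells, had signals of 30270 and 36620 in wild type and 38380 and 34020 in *Plzf* lu/lu. Its log2 ratios of 0.34 and -0.11 had the same signs as those of *Lin28a* and *Lin28b*. MicroRNAs themselves were not measured. In the RefSeq miRNA table (GRCm38.p6), 10 of 11 mature sequences of the let-7 family, let-7k and miR-98 among them, share bases 2 to 8, the seed, and the exception is let-7j. The mature sequences below are the products whose maturation the Lin28 proteins hold back, with the seed in capitals.
let-7a: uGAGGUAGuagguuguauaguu
let-7d: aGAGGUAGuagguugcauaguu
let-7i: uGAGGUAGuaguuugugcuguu
The precursor of let-7g (chr9:106178840-106178927, plus strand) is given with the seed and the letters GGAG of its loop in capitals, since the zinc knuckles of Lin28 bind such letters.
let-7g precursor: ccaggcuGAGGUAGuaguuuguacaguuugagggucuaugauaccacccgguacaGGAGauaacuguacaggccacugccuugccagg
Of the 11 hairpins of the family with a loop between 2 known mature sequences, 8 hold GGAG in that loop. Anywhere on the transcribed strand it is found in 11 of the 14 hairpins of the family, in 3 of which (let-7j, let-7k and let-7a-2) the loop is not set by 2 known mature sequences, against 447 of all 1005 mouse hairpins of the table (44.5%).

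Of the genes whose mRNA Musashi proteins bind, *Numbl* passed the filter, with signals of 684 and 642 in wild type and 797 and 752 in *Plzf* lu/lu. Both *Plzf* lu/lu samples were the higher ones, with log2 ratios of 0.22 and 0.23 (adjusted p from limma 0.133), under 1.3-fold. *Numb* and *Cdkn1a* did not pass, so 1 of the 3 was tested and 0 were higher or lower by the rule (1 higher with the mean over probes or with normexp and centring on all gene spots). Genes of later glia were mostly dim, and of 14 genes 4 passed, 0 higher and 0 lower on both arrays. On array 2 alone 3 were higher, and with normexp and centring on all gene spots 4. With no filter 1 was higher and 1 lower. *Gfap*, *S100b*, *Slc1a2* and *Tnc* were not well above background in every channel. *Glul*, the brightest, had log2 ratios of 0.22 and -0.01. The other passing genes were positive on both arrays, with 0.30 and 0.61 for *Sox9*, 0.06 and 0.81 for *Nfib*, and 0.05 and 0.95 for *Ptprz1*. The median of the 4 genes was 0.14 on array 1 and 0.71 on array 2.

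Among paralogues of the markers, 7 of 14 passed, with 1 higher and 0 lower, and a median log2 ratio of 0.34 (0.11 on array 1 and 0.57 on array 2). The neurofilament genes *Nefl*, *Ina* and *Nefm*, relatives of *Nes* found in neurons, had 1.06, 0.82 and 0.60 on array 2, as the neuronal genes did, and 0.07, 0.14 and -0.48 on array 1. The count of 1 higher became 0 at 1.5-fold, 2 with genes well above background or no filter, 5 on array 2 alone and 6 with normexp and centring on all gene spots, and 1 was lower on array 1 alone or with no filter. *Slc1a4*, an amino acid transporter of the family of *Slc1a3*, had signals of 715 and 666 in wild type and 1040 and 990 in *Plzf* lu/lu. All *Plzf* lu/lu values were above the wild type values, with log2 ratios of 0.54 and 0.57 (adjusted p from limma 0.0510). *Fabp5*, the brightest and a relative of *Fabp7*, had log2 ratios of 0.11 on each array, and so did not share the opposite signs of *Fabp7*. *Sync*, *Fabp4* and *Slc1a1* were not well above background in every channel. Of 8 genes of neurogenic progenitors, 4 passed, and 0 were higher and 0 lower (1 higher on array 2 alone or with a looser filter, 2 with normexp and centring on all gene spots). Their median log2 ratio was -0.17 on array 1 and 0.27 on array 2, the signs of *Fabp7*. *Hes6*, the brightest of them, had -0.10 and 0.13.

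**Figure D3:**
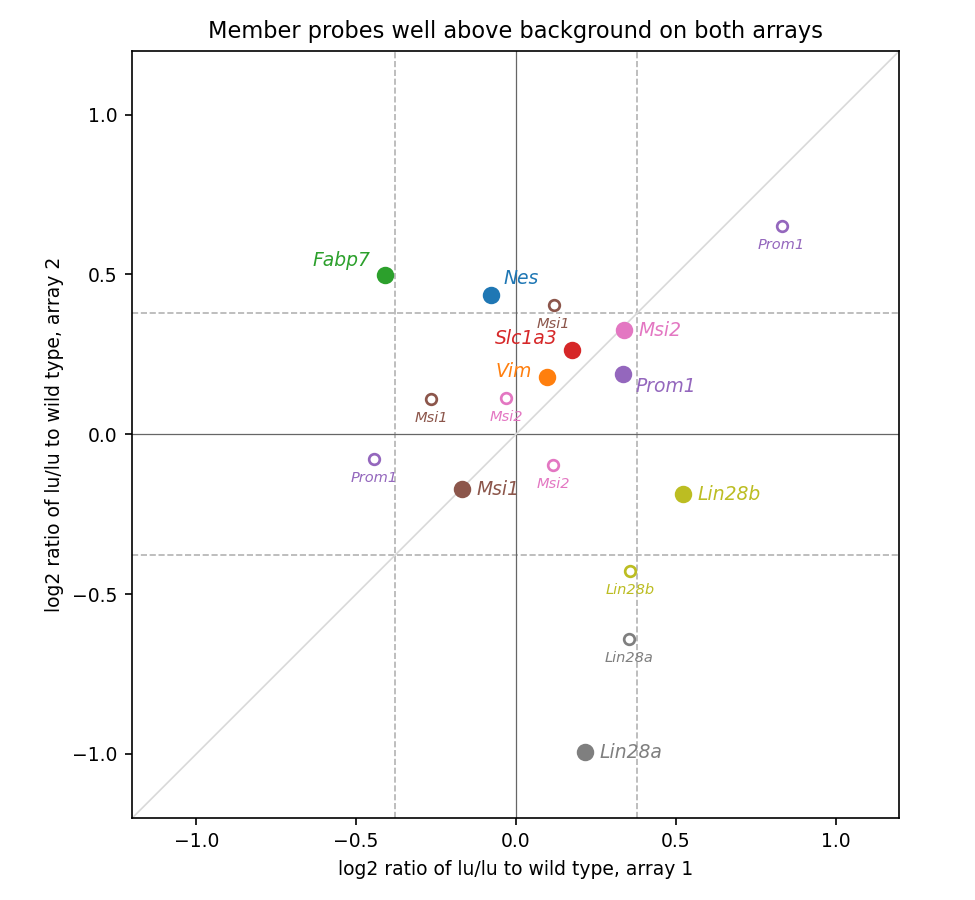
Log2 ratios, *Plzf* lu/lu over wild type, on array 1 (horizontal) and array 2 (vertical) for the 17 probes of the 9 markers that were well above background in each channel, filled for the brightest probe of a gene and open for its other probes, with dashed lines at 1.3-fold. The brightest probe of *Msi2* lies just inside the upper right corner of the dashed square, and 1 open point of *Prom1* lies beyond it.

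In sum, no marker of the 9 met the 1.3-fold rule at its brightest probe, and limma called none. *Msi2* came nearest, at 1 of its probes. The radial glia marker *Fabp7* and the Lin28 genes showed no shared direction on the 2 arrays, and *Slc1a3* did not pass the signal filter. With normexp background correction and centring on the passing genes, in place of the deposited processing, *Msi2* met the rule and passed in limma (0.41, adjusted p 0.0244), as did 455 and 1514 of the 10600 genes. When normexp was joined with centring on all gene spots, which moved the median of the passing genes to 0.56, the signs of *Msi1* and *Lin28a* reversed, 3 markers were higher by the rule and 5 passed in limma, as did 6731 and 9652 of the 10600 genes. With 2 arrays the intervals are wide, and those of *Nes*, *Fabp7*, *Msi2*, *Lin28a* and *Lin28b* reach past 1.3-fold, so absence of a call does not show equal levels. RNA levels say nothing of protein, and the arrays do not show which cells carried the transcripts.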

How the data were processed

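RNA of wild type (Cy3) and *Plzf* lu/lu (Cy5) brain at E10.5 was measured on 2 arrays of 1 slide. The authors processed the scans with Feature Extraction 10.7.3.1 (rank-consistency LOWESS within each array), and the deposited values are spot intensity and its log10 ratio, with a second deposited table of log2 ratios. Control spots and outlier spots (137 and 126) were dropped, repeated spots were combined as log2 means, and probe positions are in build mm9. The test was limma 3.58.1 (lmFit, eBayes; R 4.3.3), which with 1 residual degree of freedom rests on variance pooled over genes, and other software was Python 3.11.15 with pandas 2.3.3, numpy 2.4.6 and matplotlib 3.10.9, and the R package data.table (1.17.8). The number of arrays limits the precision. The limma fit, the fold calls and the removal of a trend on probe GC content were tested on simulated data, and the other steps were not. The markers and lists were chosen with earlier results of these data known. Named in each list are the passing genes beyond 1.3-fold on both arrays (at most 4) and the brightest passing gene. Other passing genes and genes that did not pass are named in some lists only. Alternatives were normexp (offset 50) with loess or with centring, the deposited log2 table, other filters, the mean over probes, removal of the trend on probe GC content (lowess, span 0.67), eBayes with trend, a cutoff of 1.5-fold, averaging of the arrays, and single arrays.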

Additional observations from a re-analysis of the deposited data

How the results depend on the processing

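Over 10 other ways of processing both arrays, the mean log2 ratio kept its sign in 10 for *Nes*, *Vim*, *Msi2* and *Lin28b*, in 9 for *Lin28a* and in 8 for *Fabp7* and *Msi1*. The other filters and eBayes with trend do not alter the ratio of a gene, so a sign could not turn under them. The same holds for the mean over probes in *Nes*, *Vim* and *Fabp7*, which have 1 probe each. The deposited log2 table held the main ratios of the markers up to rounding, as for *Nes* (0.18 against 0.1791) and *Fabp7* (0.045 against 0.0449). Its agreement is therefore no separate check on the sign. Only the remaining settings bear on the sign. Normexp with centring on all gene spots raised the median of the passing genes to 0.56 on the log2 scale, and there *Nes* had 0.80, *Vim* 0.84, *Fabp7* 0.62, *Msi2* 0.97 and *Lin28b* 0.81, all past the threshold in limma as were 9652 of the 10600 genes, while *Msi1* turned to 0.28 and *Lin28a* to 0.15. Both of the last were still below that median. The number of markers higher beyond 1.3-fold was 3 there, against 6731 of the 10600 genes, and 1 (*Msi2*, 0.41, adjusted p from limma 0.0244) with normexp and centring on the passing genes, against 455 higher and 1514 past the threshold in limma. In both of these settings normexp and the centring took the place of the background correction and the LOWESS step together, and they differ from each other in the shift of the median. Normexp with loess has the same background step and differs from them in the dye step. With it 285 of the 10600 genes were higher and 0 passed in limma, and *Msi2* had 0.36 (adjusted p from limma 0.0636). The adjusted p of *Msi2* lay between 1.75e-10 and 0.884 over these settings, with a mean log2 ratio of 0.03 when its 5 probes were averaged. *Fabp7* turned to -0.0288 with normexp and loess and to -0.0323 with the GC trend removed, and *Msi1* to 0.0046 with the mean over probes. With the mean of the arrays in place of each array, 1 marker was lower (*Lin28a*), against 245 of the 10600 genes. With 1 array left out, 1 to 2 markers were higher and 1 lower, and the log2 ratio ranged from -0.0783 to 0.44 for *Nes*, -0.41 to 0.50 for *Fabp7*, -0.99 to 0.22 for *Lin28a* and -0.19 to 0.52 for *Lin28b*. The cause of the other changes was not tested. Over the other lists, 26 counts were compared, and those that moved by more than 1.5 times, or from or to 0, numbered 11 with normexp and centring on all gene spots, 10 without a filter, 10 and 7 with array 1 or array 2 left out, 7 with spots well above background, 6 with the mean over probes, 5 at 1.5-fold, 2 with the filter in 1 channel, 1 each with normexp and loess, normexp and centring on the passing genes and the GC trend removed, and 0 with the deposited table. Since the deposited table held the main ratios of the markers up to rounding, its count of 0 is no check against other processing. With 2 arrays, a difference the size of that between the arrays cannot be assigned to genotype, and dim probes give less certain ratios.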
